A study of Sus scrofa and Bos taurus with 31 samples.

Results

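Of the 533944 regions formed by merging the ATAC-seq peaks of 16 pig libraries, 5876 were open in all 8 tissues and lay more than 2 kb from every annotated transcription start site (TSS). These all-tissue distal regions are described here. They were selected on the peak lists themselves: peaks sharing at least 1 bp were merged, a tissue counted a region as open if each animal's list had a peak there, and the TSSs of coding and non-coding transcripts came from the RefSeq annotation of the Sscrofa11.1 assembly. Openness in all tissues, and a fold high enough to give a peak in each of the 16 libraries, therefore come from the choice of regions and are given as a description. The regions open in all 8 tissues numbered 16833. Besides the distal ones, 10448 of them had the TSS of a protein-coding gene within 2 kb and 509 that of a non-coding gene only.

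The libraries came from 2 castrated male Yorkshire pigs, littermates 6 months of age, named P348 and P350. Each animal gave 1 library of each of 3 brain tissues (cerebral cortex, cerebellum and hypothalamus) and of 5 others, which were liver, spleen, lung, skeletal muscle and adipose (subcutaneous, in the study's text). Nuclei were cryopreserved, and no treatment was applied. All libraries share the breed, the sex, the castration and the litter, so n = 2 per tissue describes the spread between a pair of brothers. The tissues are mixtures of cell types, and in bulk tissue fewer cells with open chromatin and less opening per cell cannot be told apart. The lists held between 99960 and 217308 peaks and give no read depth. Of 21 marker genes for the labelled tissues, 16 had a peak within 2 kb of a TSS in both libraries of their tissue and 10 had their highest mean fold there. Of the other 5, PLIN1 in adipose, TBR1 in cerebral cortex and OTP in hypothalamus had no such peak, and ALB in liver and AGER in lung did not have one in both libraries. Where a pair of values is given for a tissue, P348 comes first.

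ATAC-seq marks DNA that the Tn5 transposase can reach, which is mostly DNA free of nucleosomes. Many open sites far from genes are enhancers, used in some cell types and closed in others. Sites open in every tissue are usually promoters of genes that all cells use. Away from promoters, a known kind of constantly open site is that bound by CTCF, a zinc finger protein that blocks the extrusion of chromatin loops by cohesin and so anchors loops and domain borders. Others include promoters absent from an annotation and CpG islands, stretches rich in CG dinucleotides that in most cells lack DNA methylation.

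The sequences shown first are those of all-tissue distal regions with the core of the CTCF motif, since that motif set these regions apart from distal regions of single tissues. The search used the CTCF core of 12 letters, 8 of them fixed and 4 allowing either of a pair of bases, on both strands of a 300-base window centred on the bases covered by most libraries. The first 5 lines give, for the regions on numbered chromosomes among the 6 with a single core and the highest fold in their weakest library, the core in capitals with 14 bases on each side, written 5′ to 3′ on the strand that carries it. The core lay within 52 bases of the window centre in each.

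chr13:45539731-45539770 (+ strand), 10070 bp from the TSS of the proteasome subunit gene PSMD6: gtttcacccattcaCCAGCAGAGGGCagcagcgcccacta
chr5:87609012-87609051 (− strand), in an intron of CCDC38: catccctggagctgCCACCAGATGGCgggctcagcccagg
chr11:64382929-64382968 (+ strand), between genes: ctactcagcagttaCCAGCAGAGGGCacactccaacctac
chr11:5595111-5595150 (− strand), in an intron of PAN3: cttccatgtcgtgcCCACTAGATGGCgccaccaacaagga
chr1:58456244-58456283 (− strand), in a non-coding gene: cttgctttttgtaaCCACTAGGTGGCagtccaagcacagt

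The whole window of the chromosome 13 region, chr13:45539624-45539923 on the + strand, shows the core in its setting, again in capitals:

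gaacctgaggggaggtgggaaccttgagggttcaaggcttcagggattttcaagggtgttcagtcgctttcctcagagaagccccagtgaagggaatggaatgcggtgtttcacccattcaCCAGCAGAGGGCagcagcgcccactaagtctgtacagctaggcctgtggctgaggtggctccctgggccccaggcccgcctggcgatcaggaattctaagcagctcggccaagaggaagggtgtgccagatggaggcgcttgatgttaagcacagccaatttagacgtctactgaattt

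The other common kind was CpG-rich, with at least 50% G and C and an observed-to-expected CpG ratio of at least 0.6. The window of the CpG-rich region on a numbered chromosome with the highest minimum fold, chr8:73137657-73137956 on the + strand, is printed with its 18 CG dinucleotides in capitals:

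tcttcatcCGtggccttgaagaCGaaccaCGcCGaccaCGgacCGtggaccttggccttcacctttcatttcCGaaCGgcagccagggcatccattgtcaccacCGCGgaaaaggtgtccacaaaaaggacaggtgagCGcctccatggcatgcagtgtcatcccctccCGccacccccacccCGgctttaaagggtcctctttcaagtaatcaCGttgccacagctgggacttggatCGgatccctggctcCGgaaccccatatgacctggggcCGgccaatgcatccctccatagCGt

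The AP-1 factors FOS and JUN bind TGACTCA or TGAGTCA, while the letters searched, TGANTCA, allow any base at N. Shares and sites named AP-1 count every such match, and no chance rate was computed. Finally, 3 regions that were neither CpG-rich nor held a CTCF core carried these letters, the first as TGAATCA. They lay 146, -91 and 114 bases from the window centre in the order below, shown in capitals on the + strand:

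chr1:235690157-235690191, in an intron of LOC100525024: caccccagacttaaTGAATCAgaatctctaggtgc
chr13:6842462-6842496, in an intron of EFHB: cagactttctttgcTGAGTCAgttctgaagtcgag
chr14:99503915-99503949, between genes and 45528 bp from the nearest TSS, that of SGMS1: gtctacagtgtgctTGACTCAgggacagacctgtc

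The share of windows with a CTCF core rose at each step with the number of tissues in which a distal region was open. It was 0.501% (95% Wilson confidence interval 0.464 to 0.541) of 128339 windows open in 1 tissue, 3.02% (2.78 to 3.29) in 4 tissues, 9.43% (8.79 to 10.1) in 7 tissues and 13.7% (12.9 to 14.6) of 5874 windows of the all-tissue distal regions. A total of 806 all-tissue windows held the core, 793 of them a single one. At the promoter regions open in all tissues the share was 1.16% (0.97 to 1.38). Read backwards, the core keeps its base composition but always holds a CG, which the core as written never does. The reversed core was found in 0.017% of the all-tissue distal windows. CG was scarce there (mean observed-to-expected ratio 0.446, and 0.242 in 1-tissue windows), so the reversed core is not a matched background. The Wilson intervals cover counting error only, and a window with the letters was not shown to be bound. Windows are centred on the bases under most libraries, a median of 3 libraries in 1-tissue and 16 in all-tissue distal regions. How well the window is placed may thus change with the number of tissues, which was not tested. Whole regions were searched only for the all-tissue distal regions (17.1%).

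The comparison was then made tissue by tissue, because regions share libraries. Against the distal regions open in 1 tissue only, the all-tissue distal regions exceeded the CTCF core share in 8 of 8 tissues, by 13.0 percentage points ± 0.634 (SD, n = 8 tissues). In the 1-tissue regions the share ran from 0.148% in cerebellum to 1.99% in liver. The exact two-sided sign-flip test gave p = 0.0078, the smallest that 8 tissues allow, and an adjusted p of 0.0104 (Benjamini-Hochberg over 4 exact tests on sequence and place). The 8 differences share the value of the all-tissue distal regions. The smallest p is therefore reached whenever that value lies outside the range of the 8 tissues' values. The test carries no counting error of the all-tissue distal regions. The same limit holds for the tests of GC content, soft-masked share and genic share below.

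**Figure D1:**
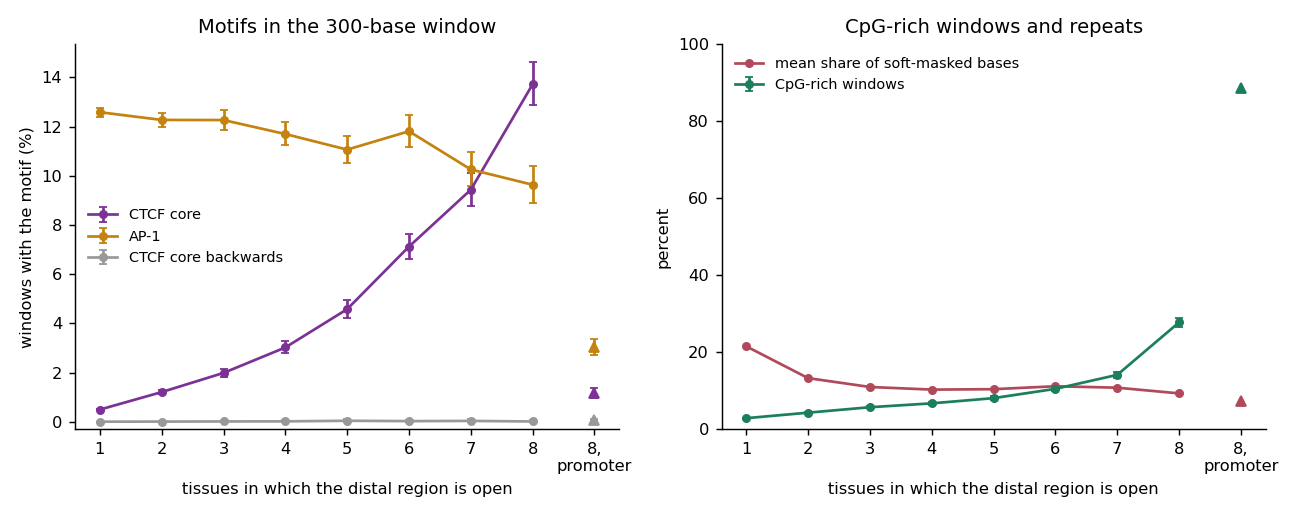
Left, share of 300-base windows with the CTCF core, the AP-1 site or the reversed CTCF core (percent, y axis) against the number of tissues in which a distal region was open, with all-tissue promoter regions as triangles. Bars are 95% Wilson intervals. The CTCF core climbs from 0.501% to 13.7% while AP-1 falls from 12.6% to 9.64%. Right, share of CpG-rich windows and mean share of soft-masked (repeat) bases on the same axis, where CpG-rich windows climb from 2.88% to 27.7%.

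GC content also rose at each step with the number of tissues, but unlike the CTCF share it was highest at promoters. All-tissue promoter windows averaged 68.1% G and C, distal windows open in 7 tissues 57.5% and 1-tissue distal windows 49.0%. The windows of all-tissue distal regions averaged 58.9%. They exceeded the 1-tissue regions in 8 of 8 tissues, by 9.07 percentage points ± 3.02 (SD, n = 8, exact sign-flip p = 0.0078, adjusted p = 0.0104). CpG-rich windows made up 27.7% (26.6 to 28.9), against 14.1% of distal regions open in 7 tissues, 2.88% of those open in 1 and 88.5% of all-tissue promoters. The step from 7 to 8 tissues was the steepest for CpG-rich windows.

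Soft-masked bases, which the assembly marks as repeats, took up 9.32% of the all-tissue distal windows and 21.5% of the 1-tissue windows. Distal windows open in 2 to 7 tissues had 10.3% to 13.3%, so most of this drop lay between 1 and 2 tissues. Against the 1-tissue regions the all-tissue share was lower in 8 of 8 tissues. The mean difference was -8.88 percentage points ± 6.12 (SD, n = 8, exact sign-flip p = 0.0078, adjusted p = 0.0104). The 1-tissue regions of cerebellum stood apart, with 32.4% of bases soft-masked against 12.3% to 19.2% in the other tissues. Without cerebellum the mean difference was -6.84 points (exact p = 0.0156, the smallest 7 tissues allow). With peaks limited to q under 0.0001 it shrank to -0.602 points (exact p = 0.492), so the call does not hold there.

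Most other motifs placed the all-tissue distal regions between single-tissue distal regions and promoters. The GC box of the SP and KLF factors, GGGCGGG, was in 19.6% (18.6 to 20.6) of their windows, against 4.06% in 1-tissue distal and 53.6% in all-tissue promoter windows. The ETS site CCGGAAG was in 5.04%, against 1.44% and 17.2%. The NF-Y site GCCAATC was in 4.44%, against 2.23% and 9.62%, and the NRF1 site CATGCGC in 2.49%, against 0.803% and 5.42%. The YY1 site AANATGGCG, typical of promoters, was in 0.443% (0.302 to 0.648) of all-tissue distal windows and in 5.7% of promoter windows. AP-1 went the other way, with 9.64% (8.91 to 10.4) in all-tissue distal, 12.6% in pooled 1-tissue distal and 3.02% in promoter windows. By tissue, the 1-tissue share was lower in adipose (8.52%) and hypothalamus (9.14%). In the other tissues it ran from 10.6% in liver to 17.5% in cerebral cortex. The forkhead site TGTTTAC was in 2.93%, against 3.97% in 1-tissue distal and 1.5% in promoter windows. The E-box CAGCTG, a site of factors such as MYOD1, was in 27.1% (25.9 to 28.2), above both 1-tissue distal (23.7%) and promoter windows (16.4%). That was below distal windows open in 3 to 7 tissues, where the share lay between 27.9% and 29.7%. The E-box CACGTG, bound by MYC and its relatives, was in 8.04%, against 5.07% in 1-tissue distal and 8.54% in promoter windows. All motifs were searched on both strands, none holds another, and the AP-1 site and the E-boxes read as the same motif on either strand.

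Sorted by sequence, the 5874 regions with a full window fell into 806 with a CTCF core (13.7%), 1534 CpG-rich without it (26.1%) and 3534 of neither kind (60.2%). The 3 kinds differed in place. The CpG-rich regions lay closest to TSSs, at a median of 15872 bp, the CTCF regions at 21160 bp and the rest at 26642 bp. Of the CpG-rich regions 42.3% (39.9 to 44.8) overlapped a protein-coding gene, of the CTCF regions 49.0% (45.6 to 52.5) and of the rest 51.3% (49.7 to 53.0). Between 2 and 5 kb from a TSS, 45.7% (41.9 to 49.6) of all-tissue distal windows were CpG-rich, and beyond 50 kb 21.5% (19.6 to 23.6). The CTCF share changed less with distance, from 13.6% (11.14 to 16.4) between 2 and 5 kb to 11.4% (9.93 to 13.0) beyond 50 kb.

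The fold enrichment of a peak is its signal over local background as given by the peak caller, and the fold of a region in a library is that of its highest peak there. The median fold of the all-tissue distal regions averaged 3.30 ± 0.018 (SD, n = 2) in adipose and 3.52 ± 0.322 in cerebellum, the lowest tissues. It was 4.05 ± 0.302 in lung, 4.36 ± 0.64 in spleen, 4.49 ± 0.348 in hypothalamus, 4.56 ± 0.236 in skeletal muscle and 4.89 ± 0.0787 in cerebral cortex. Liver was highest with 5.65 ± 0.527. Skeletal muscle lay above lung in both animals, while spleen and hypothalamus changed places between them. In all 16 libraries the median of the all-tissue distal regions lay below that of all-tissue promoter regions, which ran from 3.77 to 7.16.

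Fold levels depend on the library, so the place of each region among all peaks of its library was also taken. The median percentile of the all-tissue distal regions ran from 62.1 in skeletal muscle of P350 to 87.5 in lung of P350. Skeletal muscle was lowest in both animals, at 69.2 and 62.1, and the next lowest library was adipose of P350 with 74.0. The 3 brain tissues averaged 82.9 and the other 5 tissues 78.4, a difference of 4.46 percentile points (1.72 in P348 and 7.20 in P350) with p = 0.446 by the exact two-sided test over the 56 choices of 3 tissues. On the log2 scale of the median fold itself the difference was -0.0185 (exact p = 0.911), so its direction depends on the scale.

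The animals did not differ detectably in level. The log2 ratio of the median folds, P350 over P348, averaged -0.0186 ± 0.177 (SD, n = 8 tissues), positive in 5 of 8 tissues, with p = 0.789 by the exact sign-flip test. It ranged from -0.30 in spleen to 0.19 in cerebellum.

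**Figure D2:**
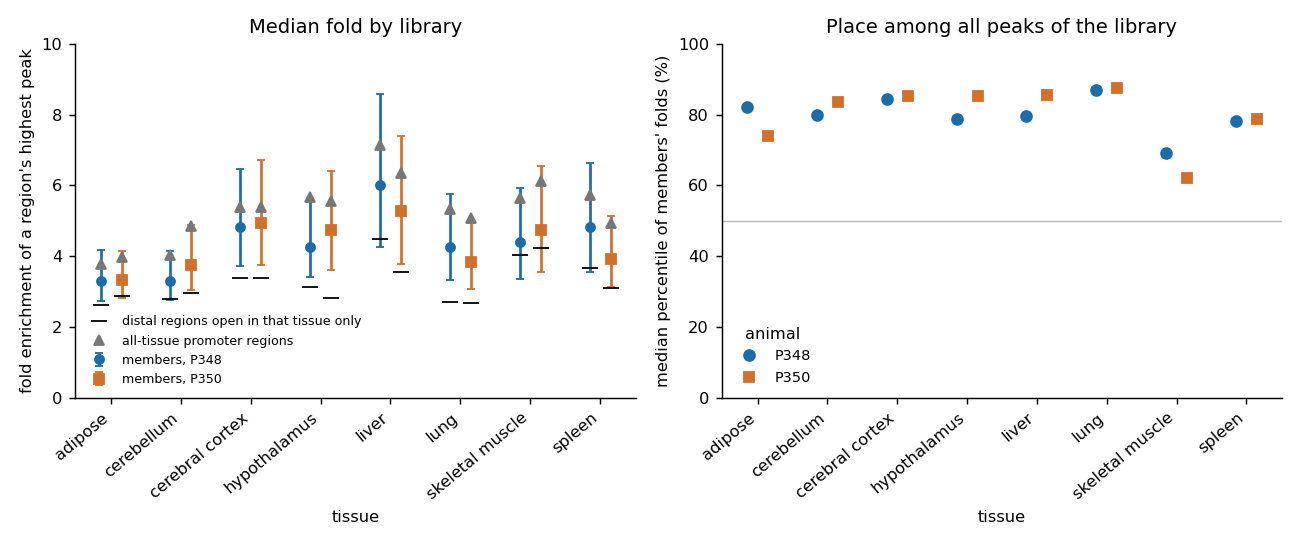
Left, median fold enrichment of the all-tissue distal regions (members) in each of 16 libraries, with bars from the lower to the upper quartile, beside the medians of all-tissue promoter regions (triangles) and of distal regions open in that tissue only (dashes). Right, median percentile of the folds of the all-tissue distal regions among all peaks of the library, with a line at 50. Adipose and cerebellum have the lowest folds, liver the highest, and skeletal muscle the lowest percentiles (69.2 and 62.1).

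The kinds of region did not share a tissue profile. Regions with a CTCF core had a higher median fold than regions of neither kind in 14 of 16 libraries, by a log2 difference of 0.46 ± 0.0047 (SD, n = 2) in liver, 0.33 ± 0.076 in spleen and 0.29 ± 0.0016 in cerebral cortex. In hypothalamus the difference was 0.08 in P348 and 0.26 in P350. It was 0.11 ± 0.019 in cerebellum, 0.09 ± 0.10 in lung and 0.07 ± 0.034 in adipose. In skeletal muscle the CTCF regions were lower in both animals, with differences of -0.06 and -0.04. The CpG-rich regions, too, had a higher median fold than the neither kind in 14 of 16 libraries. They differed by 0.16 ± 0.013 in skeletal muscle and 0.16 ± 0.023 in liver, and by -0.01 ± 0.020 in cerebral cortex. In hypothalamus their difference was 0.24 in P348 and 0.08 in P350. Each tissue has 2 animals, so these differences are given with their spread and without a test.

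**Figure D3:**
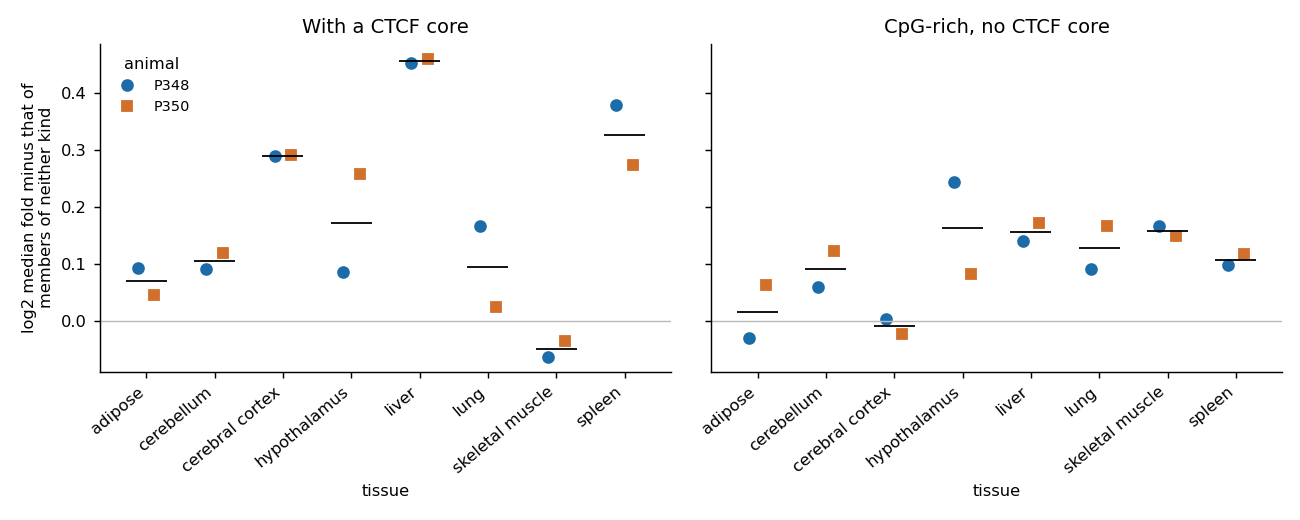
Log2 median fold of all-tissue distal regions with a CTCF core (left) and of CpG-rich ones (right) minus that of regions of neither kind, by tissue, with 1 point per animal and a line at the mean. CTCF regions stand highest in liver (0.46), spleen (0.33) and cerebral cortex (0.29) and below 0 in both muscle libraries.

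The ratio of the highest to the lowest tissue mean fold of a region had a median of 2.13, with quartiles of 1.74 and 2.57. It was under 2 in 41.8% of the regions and over 3 in 11.9%. The folds in this ratio are not centred, so it holds the difference in level between tissues (median folds of 3.30 in adipose and 5.65 in liver) and the noise of 16 libraries, and no value without a tissue difference was computed for it. By kind, the median ratio was 2.30 for CTCF, 1.98 for CpG-rich and 2.15 for neither.

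To compare tissues apart from these levels, each library's log2 folds were centred on their median over the 5876 regions, and the strongest tissue of each region was found in each animal separately. It was the same tissue in both animals for 2625 regions, or 44.7%. Relabelling the 8 tissues of an animal in all 40320 ways gave p = 2.48e-05 (exact, one-sided), the smallest these relabellings can give. Agreement was highest for skeletal muscle, where 730 of the 1030 regions strongest there in P348 were strongest there in P350 (70.9%). It was 51.4% for adipose, 51.3% for liver, 37.7% for cerebral cortex, 37.2% for cerebellum, 36.1% for spleen, 31.7% for lung and 23.5% for hypothalamus. Tissues were not strongest equally often, with 1205 of the 5876 regions for skeletal muscle and 523 for hypothalamus in P350. The shares by tissue are not adjusted for this. Of the 785 regions strongest in spleen in P348, 192 were strongest in liver in P350.

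**Figure D4:**
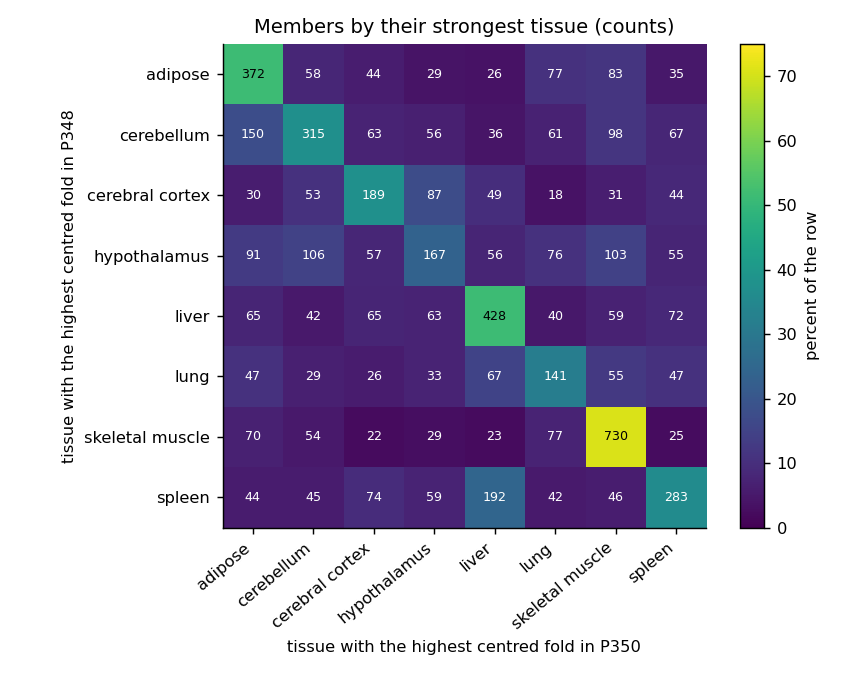
Number of all-tissue distal regions by the tissue of highest centred fold in P348 (rows) and in P350 (columns), with colour for the percent of the row. The diagonal holds 2625 of the 5876 regions, from 141 in lung to 730 in skeletal muscle.

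The regions strongest in the same tissue in both animals differed in sequence. A CTCF core was present in 33.9% (27.5 to 40.9) of the 189 strongest in cerebral cortex, in 23.1% (19.4 to 27.4) of the 428 of liver and in 21.9% (17.5 to 27.1) of the 283 of spleen. In the other tissues it was present in 4.58% (adipose) to 7.8% (lung). Taking the strongest tissue from 1 animal moved some shares, to 4.36% by P348 and 15.1% by P350 in hypothalamus and to 13.5% and 6.20% in lung, while cerebral cortex (27.3% and 25.2%), liver (23.5% and 26.1%) and spleen (24.2% and 20.7%) stayed the highest. The AP-1 site was most frequent among the 730 regions of skeletal muscle, in 14.2% (11.9 to 16.97), though by P348 alone lung had 14.4% and skeletal muscle 12.7%. It was least frequent among those of liver, in 5.14% (3.42 to 7.66). Regions strongest in adipose lay farther from TSSs, at a median of 53913 bp, and 31.5% of them overlapped a protein-coding gene, against 39.5% to 58.9% for the other tissues.

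The sharpest single cases were taken by the largest ratio of tissue means among regions with the same strongest tissue in both animals. The region chr18:19678386-19680953 overlaps a coding exon of IRF5, an interferon regulatory factor gene, and holds a CTCF core. Its fold was 12.4 and 14.7 in the skeletal muscle libraries and between 2.38 and 3.902 in the other 14, with no overlap. At most 13 libraries had a peak at any 1 base of it, so these values may come from different peaks joined by merging. The region chr10:59784996-59787087, in an intron of NUDT5, had centred folds highest in cerebellum. Its folds were 18.98 and 12.8 in cerebellum, 19.6 and 9.28 in hypothalamus and 15.9 and 10.3 in liver, against 2.44 and 2.89 in adipose and 3.44 and 3.14 in skeletal muscle. A region of 2783 bp on an unplaced scaffold had the largest ratio of all, 7.34, with its highest centred fold in adipose. It reached 22.6 and 24.7 in adipose and 22.9 and 27.1 in skeletal muscle, and 3.18 and 3.63 in cerebellum.

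At the other end, 133 regions had a ratio under 1.25. Of these, 25.6% lay on unplaced or unlocalised scaffolds, against 1.97% of the other 5743, and 7.52% on the Y chromosome, against 0.522%. Soft-masked bases took up 22.03% of their windows, against 9.02%, and 4 of them held a CTCF core (3.01%, against 13.97%). The flattest with the same strongest tissue in both animals, chr16:8144-9820, lay near the chromosome end with 83.0% of its window soft-masked, and its fold stayed between 5.80 and 5.94 in all 16 libraries. This group was set apart after its values were seen. The part of repeat sequence in these even folds was not tested.

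Some of the regions with the highest minimum fold were of this even kind, with ratios of 1.22 on chromosome 8 and 1.14 on chromosome 4. Those of chromosomes 16, 9 and 1 below were not, with ratios of 1.61, 1.40 and 1.69. On numbered chromosomes the highest was chr16:17474-17980, with folds from 13.4 in skeletal muscle to 23.8 in spleen and 83.3% of its window soft-masked. The next, chr9:15232641-15233121, was soft-masked throughout (100%) and ran from 10.8 to 18.5. The CpG-rich region of chromosome 8 printed above ran from 9.99 to 13.5, and chr4:46452815-46453562 from 9.74 to 12.5. In chr1:104617819-104618616 adipose of P348 stood alone at 9.6 while adipose of P350 had 22.2, and the highest value was 29.0 in hypothalamus of P348. On unplaced sequence the highest minimum, 20.7 in skeletal muscle of P350, belonged to a CpG-rich region of 370 bp whose other 15 libraries lay between 22.9 and 24.5. Another CpG-rich region on unplaced sequence, 4561 bp from the ribosomal RNA gene RN5-8S, ran from 13.1 to 14.8.

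Copies of mitochondrial DNA in the nuclear genome can gather reads that come from mitochondria. Aligned to the mitochondrial genome, 7 of the 5876 regions (0.119%) matched over at least 100 bases, with identities from 88.5% to 100%. They ranked between 18 and 230 by minimum fold, and 5 of them were among the first 50. The region chr9:4699928-4702236 matched over 833 bases at 99.2% identity and had folds between 6.75 and 7.10 in every library. It is named after its values were seen. The part of mitochondrial reads in these folds was not tested.

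The regions with a CTCF core were less flat. The region of chromosome 13 near PSMD6 had folds of 14.7 and 14.03 in liver, 12.9 and 14.6 in skeletal muscle, 12.1 and 12.6 in cerebellum and 8.33 and 8.28 in adipose. Its lowest library was spleen of P350 with 8.18. Liver and skeletal muscle lay above cerebral cortex, with 10.3 and 10.1, in both animals. The CCDC38 region was highest in liver too, at 16.2 and 14.2, and lowest in adipose, at 6.82 and 6.50. The PAN3 region was instead highest in cerebral cortex, at 15.11 and 15.01, followed by muscle at 13.1 and 13.2, and lowest in cerebellum of P348 at 6.06 and spleen of P350 at 6.49. In the region between genes of chromosome 11 the muscle libraries were the highest, with 11.5 and 11.9, and hypothalamus of P348 the lowest, with 6.17. The region of chromosome 1 was highest in cerebral cortex of P350 with 11.6 and liver of P348 with 11.05, and lowest in cerebellum of P350 with 5.76.

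Each AP-1 example had its highest library in liver. These folds are not centred, and liver had the highest median fold of all tissues (5.65). By centred folds, the AP-1 site was least frequent among the regions strongest in liver in both animals (5.14%). In the EFHB intron liver had 15.3 and 12.7 and adipose 5.15 and 5.30. Near SGMS1 liver had 11.8 and 13.6, spleen 11.8 in P348 and 6.34 in P350, and the lowest library was cerebellum of P348 with 5.03. In the chromosome 1 region, 2413 bp from the TSS of FAM205C, liver had 15.4 and 12.5, cerebral cortex 13.96 and 13.5 and adipose 6.71 and 5.24.

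The regions had a median width of 1934 bp, with quartiles of 1295 and 2710, a lowest width of 220 bp and a highest of 10615 bp. Distal regions open in 7 tissues had a median of 1995 bp, those open in 1 tissue 824 bp and all-tissue promoter regions 1782 bp. Merging over 16 libraries widens a region, and the median width of a single library's peaks inside them ran from 495 to 922 bp. In a single library, between 6.93% and 11.08% of the regions held more than 1 peak. In 4562 regions (77.6%) at least 1 base lay under peaks of all 16 libraries, over a median run of 233 bp. In the others the peaks of the 16 libraries met only through merging, with no base common to all.

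Narrow regions differed from wide ones. Of the 150 regions up to 500 bp wide, all had a base common to the 16 libraries and 26.7% of windows held a CTCF core. Of the 390 wider than 4000 bp, 35.9% had a common base and 7.18% held a core. The median of the lowest fold fell in the same order, from 3.67 to 2.42. The widest, chr10:19421437-19432051, overlaps a coding exon of SUSD4 with folds from 1.63 to 2.37.

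By their weakest library, the regions had a median minimum fold of 2.73, and 5% lay below 2.16. Regions just short of the rule were common: 5149 distal regions had a peak in 15 of 16 libraries, with a median lowest fold of 2.51. The missing library was cerebellum of P348 in 24.7% of them, skeletal muscle of P350 in 17.8%, hypothalamus of P348 in 13.1% and adipose of P350 in 12.4%. Cerebellum of P348 had the longest list of all, with 217308 peaks. With the regions split by minimum fold into 4 groups of 1469, the CTCF share was 10.3% (8.83 to 11.9) in the lowest group and 15.997% (14.2 to 17.96) in the highest. The genic share ran the other way, from 58.5% to 39.6%.

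Openness was also looked up in 1 tissue, or 1 animal, left out of the rule. The regions themselves were still merged from the peaks of all 16 libraries, those left out included. The shares are therefore descriptions and not an independent check. Of the distal regions open in the other 7 tissues, 99.1% (98.9 to 99.3) were open in lung, 97.7% in cerebral cortex and 94.5% in liver. It was 86.6% in adipose, 86.5% in hypothalamus, 83.4% in spleen, 76.3% in cerebellum and 73.9% (72.9 to 74.8) in skeletal muscle. For distal regions open in any other tissue, the shares lay between 17.2% in spleen and 34.6% in lung, and for those open in 6 of the other 7 tissues between 57.8% in skeletal muscle and 95.5% in lung. Of the 9339 distal regions with a peak in all 8 libraries of P348, 62.9% had peaks in all 8 of P350, and of 10089 found in P350, 58.2% had peaks in all 8 of P348. Among distal regions with a peak in at least 1 library of the choosing animal the shares were 2.47% and 2.42%.

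The nearest TSS lay at a median of 22913 bp, counting the 54 regions on scaffolds without an annotated TSS as farthest. Of the regions, 10.9% lay 2 to 5 kb from a TSS, 15.5% 5 to 10 kb, 46.1% (44.8 to 47.4) 10 to 50 kb and 15.5% 50 to 100 kb. In distal regions open in 7 tissues the median was 27772 bp. In 1-tissue distal regions it was 46525 bp when pooled. By tissue it ran from 22677 bp in spleen, 24671 bp in adipose and 26562 bp in skeletal muscle to 96130 bp in cerebellum. The 2 kb limit cut through a continuous range, with 122 all-tissue regions 1.5 to 2 kb from a TSS and 121 between 2 and 2.5 kb. For 26.6% of the regions the nearest TSS was that of a non-coding transcript. An all-tissue promoter region lay within 50 kb of 46.1% (44.8 to 47.4) of them, against 38.0% of distal regions open in 7 tissues and 27.6% of those open in 1.

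A protein-coding gene overlapped 2858 regions, or 48.6% (47.4 to 49.9). Coding exons were touched by 19.03% (18.04 to 20.1), non-coding parts of exons by 2.69%, and 26.9% (25.8 to 28.1) lay in introns. In 1-tissue distal regions 7.85% touched coding exons and 38.8% lay in introns. Any overlap with a coding exon counted, and such a region was then not counted in introns. The all-tissue distal regions were wider, with a median of 1934 bp against 824 bp. These shares and the genic difference below were not adjusted for width. Of the all-tissue distal regions another 7.22% overlapped only a non-coding gene or pseudogene and 44.1% lay between genes. CpG-rich windows were more frequent at coding exons, with 35.0%, than in introns, with 15.04%, while the CTCF share was 14.1% and 13.7%. Against 1-tissue distal regions the genic share differed by -3.99 percentage points ± 11.09 (SD, n = 8 tissues), higher in 2 of 8, which did not pass the exact sign-flip test (p = 0.344). This result moved with the settings. Without the 1-tissue regions of cerebellum, of which 30.9% were genic, it was -7.09 points (exact p = 0.0469), with q under 0.01 -10.0 points (exact p = 0.0391), and with P350 alone 0.365 points (exact p = 0.906).

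Neighbours on a chromosome were a median of 155467 bp apart, and 757 regions (12.9%, 12.1 to 13.8) had another within 10 kb, against 12.3% (11.6 to 13.1) of the distal regions open in 7 tissues. This share depends on the rule, with 29.0% where a peak in either animal was enough and 18.2% without P348. Chains with steps of at most 10 kb joined 2 regions in 284 cases, 3 in 41 and at most 9. The densest 100 kb, starting at chr10:19386975, held 10 regions around SUSD4 and TLR5, the receptor for bacterial flagellin. TLR5 had 6 within 50 kb, the most of any protein-coding gene. None of the 10 had a CTCF core, 2 were CpG-rich, and their minimum folds lay between 1.52 and 3.47.

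The autosomes held 1.89 (chromosome 8) to 3.13 (chromosome 10) regions per Mb, with a mean of 2.49 ± 0.431 (SD, n = 18). Across the 18 autosomes the density had a correlation of r = 0.22 with the density of protein-coding genes, given as a description of counts on the same sequences. Chromosome X held 62 regions, 0.492 per Mb, of which 59.7% were CpG-rich and 12.9% had a CTCF core. Both animals were male, with 1 copy of X and of Y, and the densities were not adjusted for copy number. Chromosome Y held 40, or 0.919 per Mb, and 14.5% of its 275 distal open regions were open in all tissues, against 1.76% to 2.77% on the autosomes. None of 39 windows on Y held a CTCF core, which allows a share of up to 7.69%, none overlapped a protein-coding gene, and 27 of the 40 lay in the last 2.5 Mb. Their tissue ratio had a median of 1.37, against 2.14 on the numbered chromosomes. The region farthest from any TSS, chrY:43420264-43421332 at 1928208 bp, had folds between 8.25 and 9.03 in all libraries but those of skeletal muscle, which had 4.57 and 2.75. The 147 regions on other scaffolds had 31.8% of their windows soft-masked and a CTCF core in 2.05%.

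**Figure D5:**
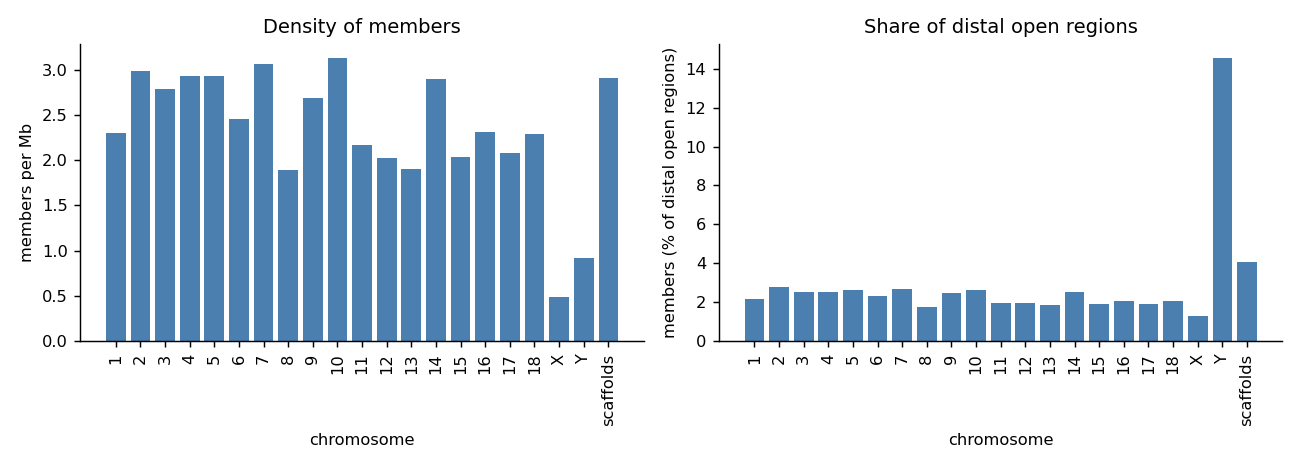
All-tissue distal regions (members) per Mb (left) and as a percent of the distal regions open in at least 1 tissue (right), by chromosome, with unplaced and unlocalised sequence pooled as scaffolds. Among nuclear chromosomes density is lowest on X (0.492 per Mb), and the share is highest on Y (14.5%). Densities are not adjusted for copy number in these male animals.

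Genes near these regions were counted on lists chosen with earlier results of these data known, so the counts are descriptions. At least 1 all-tissue distal region lay within 50 kb of a TSS for 28.7% of the 20368 protein-coding genes, and at least 3 for 1.68%. Of 22 immediate early and AP-1 genes, which cells switch on within minutes of a stimulus, 16 had at least 1 (72.7%) and 6 had at least 3. Of 10 glucocorticoid-responsive genes 3 had one, of 23 proteasome and ubiquitin genes 7, and of 13 loop and insulator factors 3, all near the background share. Among 21 marker genes of single tissues 9 had one (42.9%), including ADIPOQ, the adiponectin gene of fat cells, where a region with a CTCF core in an intron lay 4313 bp from the TSS with a minimum fold of 4.95. ADIPOQ is named after its values were seen.

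Among the listed genes, those with most regions were JUNB, a subunit of AP-1, and PSMB5, a catalytic subunit of the proteasome, with 4 each. JUNB lies among other genes, and its 4 regions, 14879 to 47417 bp from its TSS, overlapped coding exons of MAST1, RTBDN and HOOK2. The MAST1 region with a CTCF core, chr2:66170635-66172018, had folds of 18.02 and 13.96 in liver against 3.21 and 3.88 in adipose. Near PSMB5 the region chr7:75976780-75977636, in a non-coding part of an exon of ACIN1, had folds from 5.38 in adipose of P350 to 13.4 in liver of P348.

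FOS, the other partner of AP-1, had 3 regions, all between genes. The closest, chr7:98429460-98431056, was CpG-rich, 18452 bp from the TSS, with folds of 4.49 and 3.87 in adipose at the low end and 7.24 and 6.64 in spleen at the high end. FOSB, JUN, ATF3 and BTG2 also had 3 regions each. The FOSB region farthest from the gene, at 18439 bp, lies in a coding exon of RTN2 and had folds between 3.70 and 11.3. A region with a CTCF core lay 12872 bp from JUN with folds between 3.86 and 9.21. DUSP1, a phosphatase that switches off MAP kinases, had 2, of which chr16:51448511-51450569, 7355 bp from its TSS, held 2 AP-1 sites and ran from 3.09 in cerebellum of P348 to 5.87 in cerebellum of P350.

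KLF9, a glucocorticoid-responsive transcription factor gene, also had 3. The CpG-rich region chr1:223751968-223755870, 4307 bp from its TSS, was among the even ones, with folds from 3.0 to 3.8. The region chr1:223792900-223795279, in a non-coding gene, had folds of 9.49 and 7.26 in hypothalamus and 8.14 and 7.57 in skeletal muscle, against 4.49 and 5.54 in lung. PSMC3, an ATPase of the proteasome, had 3 regions with minimum folds from 1.97 to 2.37.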

How the data were processed

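The authors called peaks with MACS2 in broad mode at a q-value limit of 0.05 for each library of Sscrofa11.1. The study's methods describe trimming, alignment and duplicate removal for ChIP-seq, and the submitters' processing notes name Trim Galore 0.4.5, BWA 0.7.17, SAMtools 1.10 and Picard 2.18.17. A shift of ATAC-seq read ends is not given in the sources used here. The deposited fold enrichment of column 7 is a ratio averaged over a broad peak, and the deposited −log10 q-values of column 9 served only to filter. The 15 cattle lists were not used.

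Regions, windows, motifs, distances and shares were computed in Python 3.11.15 with NumPy 2.4.6 and SciPy 1.17.1, against RefSeq annotation release 106 of the same assembly, whose 56929 TSS positions are the 5′ ends of all transcripts. Mitochondrial matches came from BLAST 2.17.0 (E-value under 1e-10). The merging, motif search and exact tests were tested on simulated data. Wilson intervals at 95% cover counting error, and depth is unknown. The threshold on p was 0.05.

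The regions, motifs and gene lists were chosen with earlier results of these data known. Named regions are those with the highest minimum fold (5 on numbered chromosomes or X and 1 elsewhere), the same among those with a CTCF core (6), CpG-rich (3) or AP-1 (3), the largest and smallest tissue ratios, the widest, the farthest from a TSS, the densest 100 kb, and up to 10 list genes by number of regions. The animal is the same in libraries that share its name, which pairs the libraries across tissues, and the deviations of the 8 tissues in log2 median fold had a correlation of 0.79 between the animals, given as a description.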

Additional observations from a re-analysis of the deposited data

How the results depend on the processing

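The number of all-tissue distal regions followed the stringency: 20091 with a peak in either animal, 2934 with q under 0.01, 1035 with q under 0.0001, 3623 with lists of equal length, and 9027 to 9783 with 1 animal left out. Their genic share was 54.2%, 42.6%, 37.1% and 44.3% in those first 4 settings, 49.4% to 51.8% with 1 animal left out, 45.3% with a base shared by all 16 libraries, 46.2% beyond 10 kb and 46.4% with protein-coding TSSs only. The CTCF core share was 10.1%, 16.4%, 12.9% and 16.3% in the first 4 settings, 11.9% to 12.5% with 1 animal left out, 15.5% with a shared base and 17.1% over whole regions. The motif read backwards, which unlike the core always holds a CG, gave 0.017%. Its difference from 1-tissue regions was 0.0012 percentage points (exact p = 0.836). The difference in genic share turned to 2.63 points with a peak in either animal, was -10.0 with q under 0.01, -16.4 with q under 0.0001 and -7.09 without cerebellum, and ran from -2.81 to 0.365 with 1 animal left out. The difference in soft-masked share was -0.602 points with q under 0.0001. The brain difference was -0.0185 on the log2 fold scale, and with the animal as a replicate block it stayed at 4.46 percentile points (exact p = 0.446). The differences in CTCF core share and GC content kept direction and call in every other setting run, as did the agreement of the strongest tissue. Leaving out cerebellum or the 133 even regions was chosen after seeing the data. No causes were tested.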
